A study of Homo sapiens with 16 samples.

Results

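Oxidative phosphorylation is the work of 5 protein complexes of the inner mitochondrial membrane. Complex I (NADH dehydrogenase) and complex II (succinate dehydrogenase) pass electrons to ubiquinone, complex III hands them to cytochrome c, complex IV (cytochrome c oxidase) gives them to oxygen, and complex V (ATP synthase) makes ATP from the proton gradient that complexes I, III and IV build. Most subunits are encoded in the nucleus, and liver cells use the chain to burn fatty acids among other fuels. Probes were taken as members where the gene symbol of the platform table starts with NDUFA, NDUFB, NDUFC, NDUFS, NDUFV, UQCR or ATP5, or is SDHA to SDHD or a COX4 to COX8 gene. The rule found 74 of the 15240 gene symbols on the array, on 93 of its 30968 probes. Of these, 81 probes for 65 symbols had a value above 0 in every sample and were tested: 39 of complex I, 2 of complex II, 10 of complex III, 16 of complex IV and 14 of complex V. Symbols follow the platform table and can be old: ATP5C1 stands for ATP5F1C and UQCR for UQCR11.

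Some symbols that the rule takes in are not respiratory subunits: NDUFAF1 is an assembly factor of complex I, NDUFA12L is now called NDUFAF2 and is an assembly factor too, UQCRFSL1 is a pseudogene of UQCRFS1, COX4NB is now EMC8, and ATP5S is now DMAC2L. No probe of the table carries the symbols SDHA, SDHC, NDUFB8, COX6A1, ATP5A1 or ATP5G1, and these were not analysed here.

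The cells were HepG2, a line from a human liver tumour, in 4 groups of 4 biological replicates. Control cells received no fatty acid, and the other groups received oleic acid (a cis double bond), elaidic acid (its trans isomer) or stearic acid (no double bond) at 100 µM for 7 days, all 3 of the same chain length. The values are deposited intensities of 1-colour Cy5 arrays, made from 2 technical replicates per sample. The labels call the replicates biological, and do not say whether they were separate cultures on separate days, so the p-values measure the spread between these samples. In bulk RNA such as this, less RNA per cell and fewer cells of a kind cannot be told apart. The study was set up to find transcripts that mark exposure to elaidic acid.

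Each sample's arrays carry a number in the labels, and these numbers form 2 ranges that cross the groups. In range A are all of control and oleic acid and replicates 2 and 4 of elaidic acid, 10 samples together. In range B are all of stearic acid and replicates 1 and 3 of elaidic acid, 6 samples together. The arrays of control replicate 4 are numbered apart from the rest of range A. Median intensity was 20.0 to 72.8 in range A and 45.8 to 76.1 in range B, and the dimmest samples were control replicate 1 (20.0) and oleic acid replicate 4 (20.7). Other gene lists also moved with the range. The mean normalised log2 intensity of 8 probes of reference genes was 5.48 to 6.75 in range A and 7.21 to 7.73 in range B. The same mean over 43 probes of cytosolic ribosomal proteins was 7.96 to 8.81 and 9.38 to 9.62, and over 12 probes of hepatocyte markers 10.47 to 11.96 and 12.16 to 12.49. Marker probes of leukocytes (4), endothelium (4), fibroblasts (3) and muscle (3) had means whose ranges overlapped between A and B, from 6.13 to 7.56, 3.13 to 5.55, 6.46 to 7.41 and 6.61 to 7.59 over all samples. The single neuron probe was at 6.55 to 7.56 in range A and 5.36 to 6.20 in range B. The part that any of these had in the members' differences was not tested.

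Promoters of nuclear respiratory genes are known for sites of NRF1, of ETS family factors (GABP, also called NRF2), of YY1 and of ERR alpha. RefSeq promoters (250 bases before to 50 after a start, GRCh38.p14) were held for 59 of the 74 symbols, of which 55 matched as printed, 18 by a synonym and 1 not at all. The letters searched on both strands were GCATGCGC for NRF1, CCGGAAG for ETS factors, AAGATGGCG for YY1 and TCAAGGTCA for ERR alpha. The NRF1 letters were in promoters of 12 of the 59 genes (20.3%) against 3.68% of the 27305 genes of the table, the ETS letters in 18 (30.5%) against 12.2%, the YY1 letters in 7 (11.9%) against 2.14% and the ERR alpha letters in 1 (1.69%) against 0.432%. The 59 genes are all protein coding, and the 27305 were taken without a choice by gene type. A match is a run of letters and not a measured site. The 5 promoters below belong to members whose levels are described further on. NDUFA6 had the smallest p of all members in elaidic acid against control, UQCRH and ATP5C1 were high in range B, SDHB was not, and COX6B2 was low in range B. Each is printed 5′ to 3′ on the gene's strand, with the matched letters in capitals.
NDUFA6 (chr22:42090723-42091022, minus strand; 1 NRF1 and 1 YY1 match): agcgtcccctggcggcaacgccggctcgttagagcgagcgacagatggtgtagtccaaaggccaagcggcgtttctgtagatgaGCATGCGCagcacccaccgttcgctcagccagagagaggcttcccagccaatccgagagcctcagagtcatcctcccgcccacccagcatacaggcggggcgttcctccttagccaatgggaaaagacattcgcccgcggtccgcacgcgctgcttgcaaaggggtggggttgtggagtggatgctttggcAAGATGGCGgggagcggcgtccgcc
SDHB (chr1:17053983-17054282, minus strand; 1 NRF1, 1 ETS and 1 YY1 match): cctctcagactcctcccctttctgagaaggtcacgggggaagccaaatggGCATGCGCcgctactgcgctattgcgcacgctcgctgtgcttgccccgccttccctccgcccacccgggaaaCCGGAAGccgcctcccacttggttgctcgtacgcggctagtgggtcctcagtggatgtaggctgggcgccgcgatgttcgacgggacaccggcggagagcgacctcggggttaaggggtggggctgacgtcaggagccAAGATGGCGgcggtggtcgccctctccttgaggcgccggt
UQCRH (chr1:46303448-46303747, plus strand; 1 ETS match): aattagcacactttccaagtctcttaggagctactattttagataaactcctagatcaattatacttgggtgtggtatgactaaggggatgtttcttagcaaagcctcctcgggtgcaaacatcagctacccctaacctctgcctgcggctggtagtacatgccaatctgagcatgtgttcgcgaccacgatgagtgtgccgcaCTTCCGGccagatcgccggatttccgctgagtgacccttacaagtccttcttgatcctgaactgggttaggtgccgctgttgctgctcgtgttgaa
ATP5C1 (chr10:7787927-7788226, plus strand; 2 NRF1 matches, 1 on each strand, which overlap in a single palindromic run): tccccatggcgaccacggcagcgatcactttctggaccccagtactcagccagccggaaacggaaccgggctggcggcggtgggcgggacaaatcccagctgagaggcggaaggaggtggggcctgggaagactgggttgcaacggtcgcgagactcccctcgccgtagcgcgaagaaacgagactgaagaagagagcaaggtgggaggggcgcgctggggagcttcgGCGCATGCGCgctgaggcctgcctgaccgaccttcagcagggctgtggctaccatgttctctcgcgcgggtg
COX6B2 (chr19:55354670-55354969, minus strand; no match of any of the 4): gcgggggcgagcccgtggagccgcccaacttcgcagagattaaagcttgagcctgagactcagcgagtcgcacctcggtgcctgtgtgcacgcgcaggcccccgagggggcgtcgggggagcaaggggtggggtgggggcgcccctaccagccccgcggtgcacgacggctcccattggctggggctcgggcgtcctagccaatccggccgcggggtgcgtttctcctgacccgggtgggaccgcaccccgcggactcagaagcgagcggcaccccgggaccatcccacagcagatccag
The promoters of NDUFAB1, NDUFB10, COX5A, COX7A2L and COX6A2, members described below, held none of the 4 either.

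The mean level of the 81 member probes followed the array-number range. It was 8.03, 8.83, 8.61 and 8.92 in control replicates 1 to 4, and 8.87, 8.71, 8.64 and 8.02 with oleic acid (normalised log2 intensity). With elaidic acid it was 8.74 in both replicates of range A and 9.62 and 9.55 in the replicates of range B. With stearic acid, all in range B, it was 9.99, 9.83, 9.86 and 9.88. All 6 samples of range B lay above all 10 of range A, and the elaidic acid group was split between them. The lowest values of range A were those of the 2 dimmest samples. Control replicate 4, at a median intensity of 72.8 brighter than 5 of the 6 samples of range B, had a member mean of 8.92, which is below every sample of range B.

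By complex, complexes I, III, IV and V split in the same way by range, and complex II did not. Complex I was at 8.28 to 9.16 in range A and 9.70 to 10.26 in range B, complex III at 6.27 to 7.85 and 8.69 to 9.18, complex IV at 8.02 to 9.03 and 9.70 to 10.01, and complex V at 7.92 to 8.93 and 9.58 to 9.84. Complex II, with SDHB and SDHD only, overlapped at 9.00 to 9.87 and 9.26 to 9.98.

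**Figure D1:**
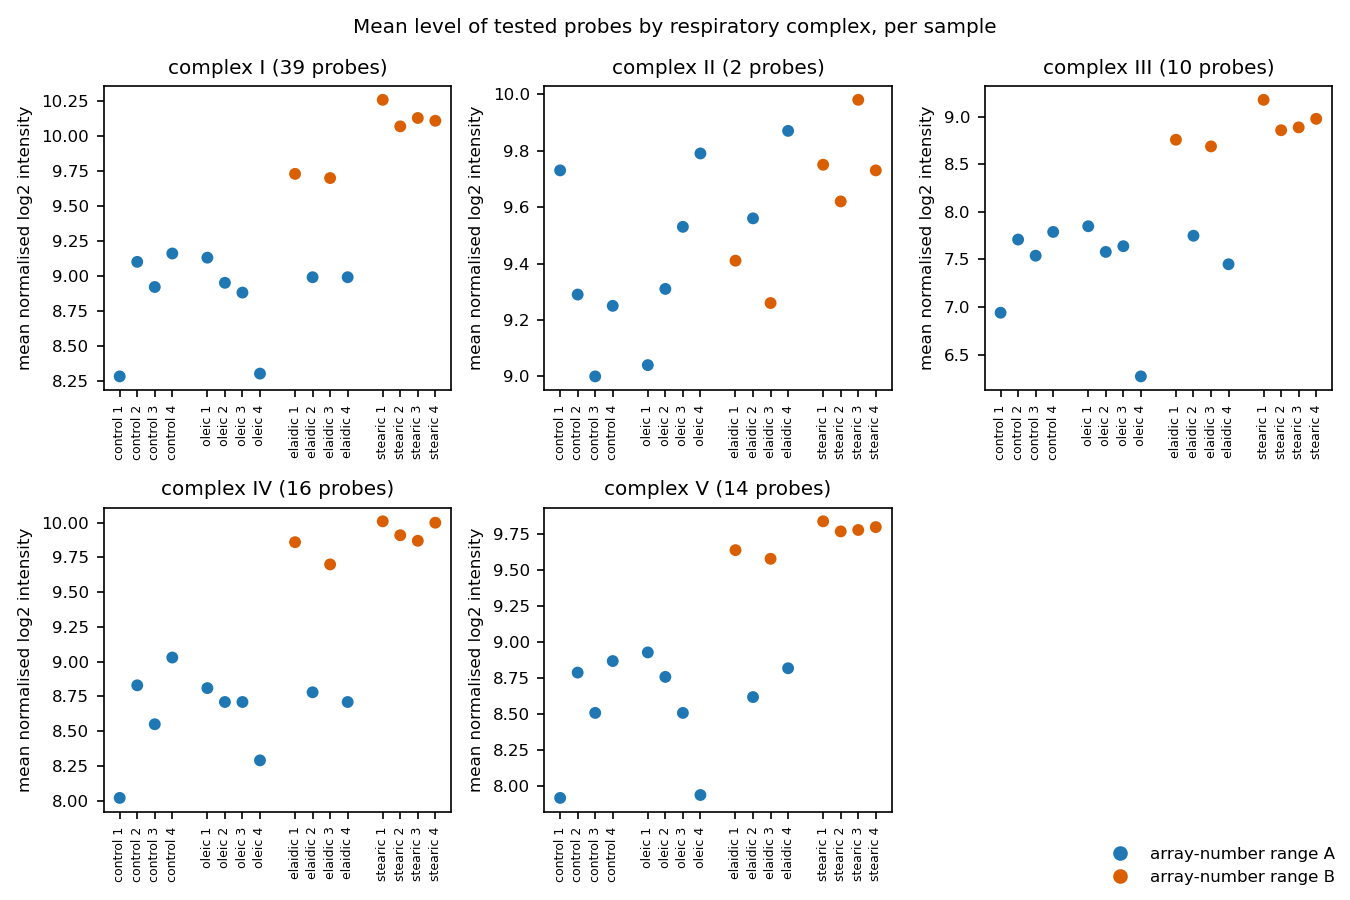
Mean normalised log2 intensity (vertical axis) of the tested probes of each respiratory complex in each of the 16 samples (horizontal axis), 1 point per sample, coloured by array-number range. In complexes I, III, IV and V the 6 samples of range B lie above the 10 of range A, and in complex II they overlap.

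The difference between the ranges can be read within elaidic acid, from 2 samples against 2. The median difference of the members, range B minus range A, was 0.80 on the log2 scale, against -0.13 over all 22939 probes, and 65 of the 81 were above 0. In 60 of the 81 (74.1%) both elaidic acid samples of range B lay above both of range A, which was so for 30.4% of all probes. By complex the median was 0.76 in I, -0.38 in II, 1.41 in III, 1.22 in IV and 0.76 in V. limma called 4 members higher in range B at a Benjamini-Hochberg adjusted p under 0.05 (4.94%, against 2.36% of all probes) and none lower (389 of all 22939 probes were). Of the 4 calls, 3 were among the 16 dim member probes, whose mean level was below the median of all tested probes. The other was 1 of the 65 brighter ones.

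The called members belong to complexes I, III and IV. NDUFAB1, the mitochondrial acyl carrier protein that is also a subunit of complex I, was at 6.10 and 5.45 in the elaidic acid samples of range A and at 8.34 and 7.61 in those of range B, a difference of 2.20 ± 0.49 (SE; limma adjusted p = 0.029). Control and oleic acid samples were at 4.18 to 6.26 and stearic acid samples at 7.60 to 8.31, so the ranges did not overlap. UQCRH, the hinge protein of complex III, was at 7.57 and 7.64 in range A and 9.77 and 9.33 in range B, a difference of 1.95 ± 0.47 (limma adjusted p = 0.038). Its control and oleic acid samples were at 6.54 to 7.97 and its stearic acid samples at 9.33 to 9.77. COX7A2L, which joins complexes III and IV into supercomplexes, was at 5.59 and 5.31 against 8.34 and 7.90, a difference of 2.67 ± 0.64 (limma adjusted p = 0.038). The other called probe was that of the pseudogene UQCRFSL1, at 4.18 and 2.52 against 6.86 and 6.87 (3.51 ± 0.85, limma adjusted p = 0.038). UQCRH, COX7A2L and NDUFAB1 each have a second probe, with differences of 1.71, 1.69 and 1.87 that were not called. NDUFB6, a complex I subunit, ATP5C1, the gamma subunit of the ATP synthase stalk, and ATP5O, which links its stalk and head, had differences of 1.75 ± 0.50, 2.03 ± 0.55 and 2.30 ± 0.63 that did not pass (limma adjusted p = 0.062, 0.051 and 0.053).

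**Figure D2:**
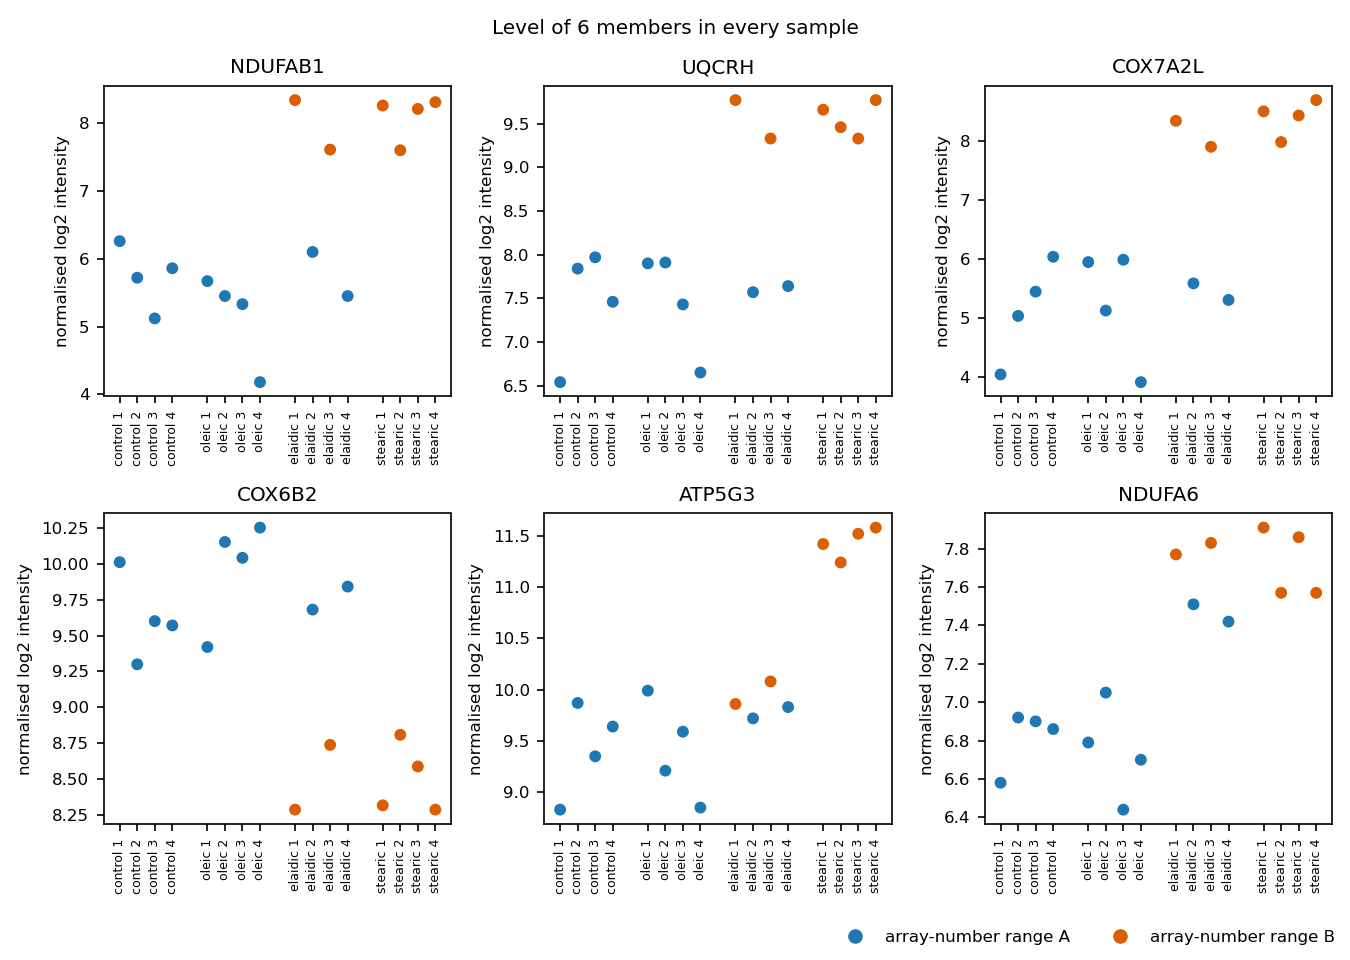
Normalised log2 intensity (vertical axis) of 1 probe each of 6 members in the 16 samples (horizontal axis), coloured by array-number range. NDUFAB1, UQCRH and COX7A2L are high and COX6B2 is low in all samples of range B, ATP5G3 is high with stearic acid only, and NDUFA6 is high with elaidic and stearic acid.

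Stearic acid was compared with control across the ranges, since every stearic acid sample is in range B and every control sample in range A. Without the range in the model, limma called 55 of the 81 members higher (67.9%, against 15.0% of all probes) and 2 lower (2.47%, against 14.8%). The median difference was 1.49, against -0.18 over all probes, and in 56 members (69.1%, against 18.7% of all probes) every stearic acid sample lay above every control. With the range in the model, as the difference within B from stearic to elaidic acid plus that within A from elaidic acid to control, the median was 0.46 (0.01 over all probes). No member was then called, and 0% of all probes were, with 12 members (14.8%, against 7.45% of all probes) at an unadjusted p under 0.05. Of the 57 called members, 5 also turned sign, a probe each of NDUFS3, NDUFV3, UQCRFSL1, COX6B2 and ATP5O. Stearic acid and range B cannot be told apart in the first of these comparisons.

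Of complex I, 29 of 39 probes for 23 genes rose with stearic acid without the range in the model, by 0.73 to 3.03. They were NDUFA1, NDUFA2, NDUFA6, NDUFA8, NDUFA10, NDUFA12, NDUFA13, NDUFA12L, NDUFAB1, NDUFB1, NDUFB2, NDUFB4, NDUFB6, NDUFB7, NDUFB9, NDUFB10, NDUFB11, NDUFC1, NDUFS3, NDUFS4, NDUFS5, NDUFS8 and NDUFV3. NDUFS3, NDUFS8 and NDUFS4 are subunits of the arm that reaches into the matrix. NDUFB10, an accessory subunit of the membrane arm, was at 7.24, 8.76, 8.19 and 10.19 in control and at 11.50, 11.19, 11.28 and 11.24 with stearic acid (2.71 ± 0.57, limma adjusted p = 0.0050). With the range in the model it was 0.79 ± 0.81. Of the core subunits, NDUFS3 and NDUFS8 were among those called, and NDUFV1 and NDUFS1 were not. NDUFV1, which binds NADH, was at -0.19 ± 0.23. NDUFS1, the large iron-sulfur subunit, on a dim probe (deposited intensity 10.47 to 44.74), was at -0.51 ± 0.50. With the range in the model both signs turned, to 0.17 ± 0.38 and 1.13 ± 0.72. NDUFA4L2, a paralogue of NDUFA4 that is induced by hypoxia, was at -0.61 ± 0.29 (limma adjusted p = 0.11). The probe of NDUFA7 was at 0.18 ± 0.22.

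In complex II neither SDHB, the iron-sulfur subunit, nor SDHD, a membrane anchor, passed in any comparison. SDHB was at 10.77, 10.30, 10.23 and 10.32 in control, 10.05, 10.10, 10.87 and 11.11 with oleic acid, and 10.85, 10.78, 10.92 and 11.03 with stearic acid. With elaidic acid it was at 10.86 and 10.93 in range A and at 10.26 and 10.13 in range B, the opposite order to most members. Its stearic acid values all lay above control, at a difference of 0.49 ± 0.27, and 1.19 ± 0.42 with the range in the model (limma adjusted p = 0.17 and 0.48). The promoter of SDHB holds 3 of the 4 searched motifs, and that of NDUFAB1 none.

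Of complex III, 7 of 10 probes rose, by 1.14 to 3.16, for UQCR, UQCRC1, UQCRFSL1, UQCRH and UQCRQ. UQCRC1, a core protein of the complex, was at 6.13, 6.75, 6.88 and 7.43 in control and at 9.48, 9.04, 9.14 and 9.25 with stearic acid (2.43 ± 0.47, limma adjusted p = 0.0032). It was at 7.27 in both elaidic acid samples of range A and at 9.05 and 8.80 in those of range B, and its difference with the range in the model was 0.78 ± 0.65. The probes of UQCRC2, the other core protein, differed in sign without the range, at 1.27 ± 0.54 and -0.53 ± 0.34, and not with it, at 0.10 ± 0.89 and 0.39 ± 0.52, and neither passed in either fit.

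Of complex IV, 10 of 16 probes rose, by 1.46 to 3.26, for COX5A, COX5B, COX6B1, COX6C, COX7A2, COX7A2L, COX7B and COX7C. COX5B was at 9.09 to 12.39 in control and 13.20 to 13.35 with stearic acid (2.41 ± 0.62, limma adjusted p = 0.012). The 2 members that fell are isoforms named for other tissues, COX6A2 of heart and skeletal muscle and COX6B2 of testis. COX6A2 was at 8.29, 8.09, 8.27 and 7.91 in control and at 6.80, 7.37, 6.96 and 6.99 with stearic acid (-1.11 ± 0.24, limma adjusted p = 0.0055). COX6B2 was at 10.01, 9.30, 9.60 and 9.57 and at 8.32, 8.81, 8.59 and 8.29 (-1.12 ± 0.33, limma adjusted p = 0.021). Both also separated the elaidic acid samples by range, at 7.56 and 8.09 in A against 7.27 and 6.95 in B for COX6A2, and at 9.68 and 9.84 against 8.29 and 8.74 for COX6B2. With the range in the model they were at -0.40 ± 0.35 and 0.13 ± 0.41, so the sign of COX6B2 turned. COX4I1 and COX4I2, the common and the lung isoform of subunit 4, and COX7A1, the muscle isoform of subunit 7A, were at 0.75 ± 0.39, -0.06 ± 0.35 and -0.06 ± 0.46. COX4I1 had deposited intensities of 4448 to 62330.

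Of complex V, 9 of 14 probes rose, by 1.31 to 2.10, for ATP5B, ATP5C1, ATP5D, ATP5E, ATP5F1, ATP5G3, ATP5O and ATP5S. The ATP5E probe is dim, with deposited intensities of 1.163 to 35.03. ATP5B, the catalytic beta subunit, was at 11.19, 11.61, 11.04 and 11.35 in control and at 12.78, 12.40, 12.68 and 12.57 with stearic acid (1.31 ± 0.21, limma adjusted p = 0.0014). Its elaidic acid samples lay between, at 11.65 and 11.69 in range A and 12.12 and 11.94 in range B. With the range in the model the difference from control was 0.95 ± 0.35 (limma adjusted p = 0.49).

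**Figure D3:**
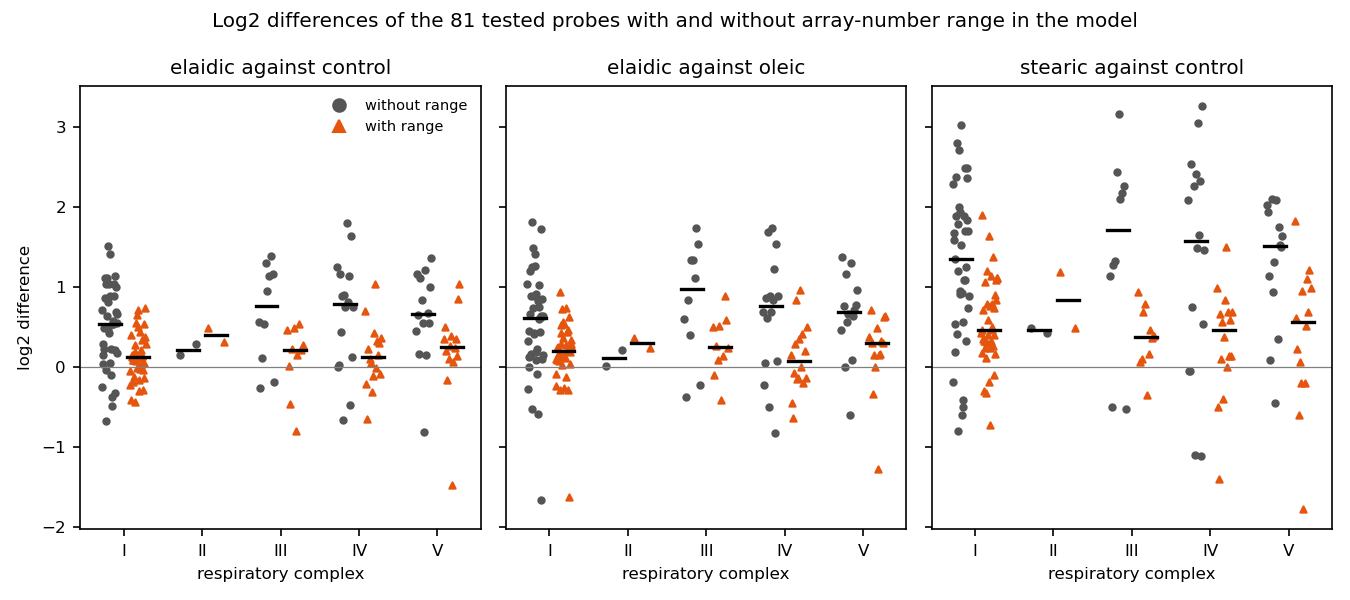
Log2 difference (vertical axis) of each of the 81 tested probes by respiratory complex (horizontal axis) in 3 comparisons, without (circles) and with (triangles) the array-number range in the model; black bars are medians. The medians of stearic acid against control are 1.35, 0.45, 1.71, 1.57 and 1.51 in complexes I to V without the range, and nearer to 0 with it in all but complex II.

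Within range B, stearic acid can be set against the 2 elaidic acid samples of the same range. The median of the members was 0.28 higher with stearic acid (elaidic minus stearic, -0.28, against 0.02 over all probes), and 63 of 81 were higher. In 38 members (46.9%, against 12.3% of all probes) all 4 stearic acid samples lay above both elaidic acid samples, and in 4 (4.94%, against 11.1%) they lay below. The 38 include 24 of 39 probes of complex I, 1 of 2 of complex II, 2 of 10 of complex III, 6 of 16 of complex IV and 5 of 14 of complex V. The 4 below were NDUFA4L2, COX4I2, COX7A1 and ATP5L, all on dim probes (mean normalised log2 intensity 5.19, 5.56, 3.54 and 6.17). No member was called (0.00436% of all probes were), with 10 (12.3%, against 5.82%) at an unadjusted p under 0.05.

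Without the range in the model, all 4 elaidic acid samples against the 4 of stearic acid gave 2 members called lower (2.47%, against 0.310% of all probes), ATP5G3 and NDUFB4. ATP5G3 encodes subunit c, the rotor ring of ATP synthase. It was at 9.86, 9.72, 10.08 and 9.83 with elaidic acid and at 11.42, 11.24, 11.52 and 11.58 with stearic acid (-1.57 ± 0.27, limma adjusted p = 0.038). Between the ranges the elaidic acid samples differed by 0.19 ± 0.38. Within range B the difference was -1.47 ± 0.33 (95% interval -2.17 to -0.77, limma adjusted p = 0.33). Control was at 8.83 to 9.87 and oleic acid at 8.85 to 9.99, so stearic acid was above every other sample. NDUFB4, a subunit of the membrane arm of complex I, was at 8.94, 8.17, 9.04 and 8.21 with elaidic acid and at 10.35, 10.02, 10.06 and 10.08 with stearic acid (-1.54 ± 0.28, limma adjusted p = 0.046, and -1.14 ± 0.30 within range B). These calls were not stable to leaving out 1 sample. None is left without elaidic acid replicate 2, 3 or 4 or without any 1 of the stearic acid samples. There are 3 without elaidic acid replicate 1. Over all probes, leaving out 1 sample gave 0 to 51 calls, against 91 with all samples.

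NDUFB9 and 1 probe of NDUFS3 also stood high with stearic acid only, and did not pass in elaidic against stearic acid. NDUFB9, of the membrane arm of complex I, was at 8.95, 8.94, 8.85 and 9.32 with elaidic acid and at 10.39, 10.33, 10.53 and 10.37 with stearic acid, against 8.18 to 9.75 in control and oleic acid. Within range B the difference was -1.50 ± 0.36 (95% interval -2.28 to -0.72, limma adjusted p = 0.33), and its range difference was -0.23 ± 0.42. The NDUFS3 probe was at 11.16 to 11.65 with elaidic acid and 12.02 to 12.24 with stearic acid (-0.83 ± 0.27 within range B, limma adjusted p = 0.53), and its range difference was -0.23 ± 0.31. These members were chosen for this order after their values were seen.

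**Figure D4:**
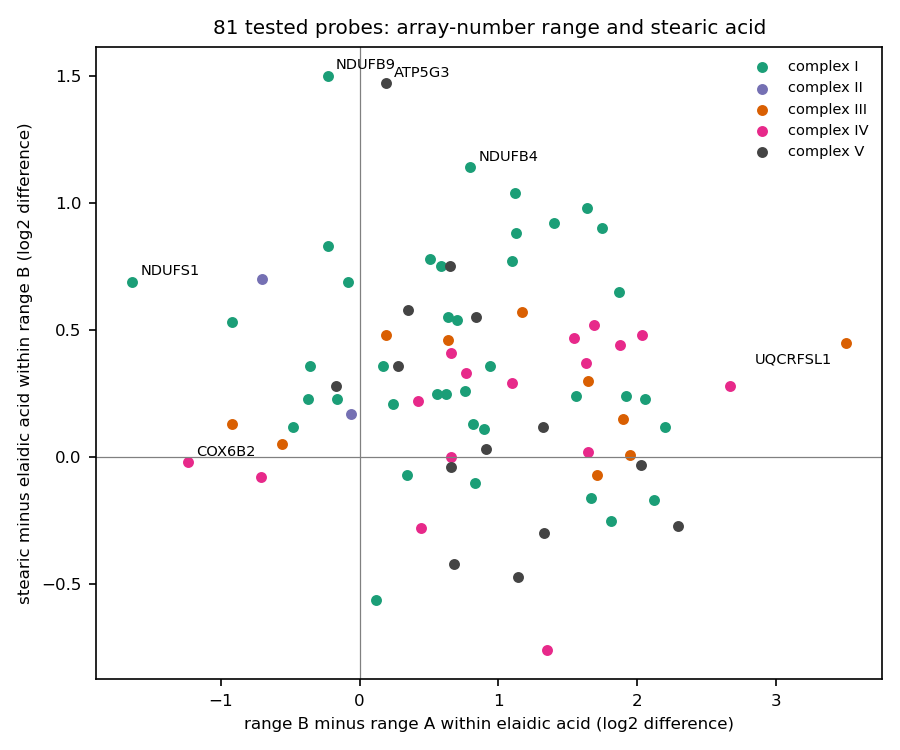
Each of the 81 tested probes by its difference between range B and range A within elaidic acid (horizontal axis, log2) and its difference between stearic and elaidic acid within range B (vertical axis, log2), coloured by complex. Most probes lie to the right of 0, while ATP5G3 (0.19) and NDUFB9 (-0.23) lie near 0 on the horizontal axis and at the top of the vertical one (ATP5G3 at 1.47); both axes use the same 2 elaidic acid samples of range B.

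Elaidic acid against control, which asks what the trans acid changes, gave no called member without the range in the model (0.323% of all probes were called) and 24 (29.6%, against 14.3%) at an unadjusted p under 0.05. With array weights, which give noisier samples less weight, 42 members were called, and 4656 of all probes. The median of the members was 0.57, against -0.10 over all probes, and 68 of 81 were above 0. Within range A, where 2 elaidic acid samples meet 4 controls, the median was 0.15 (0.02 over all probes), no member was called (0.0392% of all probes were) and 3 (3.70%, against 6.53%) had an unadjusted p under 0.05. In 9 members (11.1%, against 7.17% of all probes) both elaidic acid samples of range A lay above all controls: NDUFA1, NDUFA2, NDUFA6, SDHB, UQCR, COX5A, COX6C, ATP5B and ATP5D. In COX7A1 both lay below, on a dim probe with deposited intensities of 5.501 and 7.334 in these samples. The share of all probes that lay below was not counted. The second tested probes of NDUFA2, NDUFA6, UQCR and ATP5D did not lie above all controls in this way. That of NDUFA2, the brighter, was at -0.68 in elaidic acid against control without the range.

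NDUFA6, a complex I subunit of the LYR family, had the smallest p. It was at 6.58, 6.92, 6.90 and 6.86 in control, 6.79, 7.05, 6.44 and 6.70 with oleic acid, and 7.77, 7.51, 7.83 and 7.42 with elaidic acid. All 4 elaidic acid samples, of either range, lay above all 8 of control and oleic acid. The difference from control was 0.81 ± 0.20 (limma adjusted p = 0.11) and within range A 0.65 ± 0.23 (95% interval 0.16 to 1.13, limma adjusted p = 0.54). Against oleic acid it was 0.88 ± 0.20 (limma adjusted p = 0.080). The second probe of NDUFA6 had 0.66 ± 0.29 against control and 0.37 ± 0.34 within range A.

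COX5A, a subunit of complex IV in the matrix, was at 8.13, 9.43, 9.77 and 9.55 in control and at 10.06, 9.55, 9.38 and 8.15 with oleic acid. With elaidic acid it was at 10.27 and 10.23 in range A and 11.95 and 11.65 in range B, and with stearic acid at 11.78 to 12.58. The difference of elaidic acid from control was 1.80 ± 0.48 (limma adjusted p = 0.13) and within range A 1.03 ± 0.49 (95% interval -0.03 to 2.09). The lowest values of both control and oleic acid were those of the dimmest samples. ATP5E and ATP5D, small subunits of the ATP synthase stalk, were at 1.36 ± 0.50 and, in 1 of 2 probes, 1.00 ± 0.36 against control, and UQCRC1 was at 1.30 ± 0.47 (limma adjusted p = 0.25, 0.24 and 0.25). The ATP5E probe is dim, with deposited intensities of 1.163, 8.005, 2.13 and 17.97 in control.

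Elaidic acid against oleic acid compares the trans with the cis isomer at the same dose and time. The median of the members was 0.66 (-0.13 over all probes), and 0.20 within range A (0.01 over all probes). In 7 members (8.64%, against 6.29% of all probes) both elaidic acid samples of range A lay above all of oleic acid: NDUFA2, NDUFA6, NDUFA8, NDUFS1, COX5A, COX7B and ATP5B. The second tested probes of NDUFA2, NDUFA6, NDUFA8 and COX7B overlapped oleic acid, and the NDUFS1 probe is dim. The second NDUFA2 probe, the brighter, was at 13.85 and 14.38 in these elaidic acid samples and at 13.82 to 15.10 with oleic acid. The 1 called member (1.23%, against 0.0174% of all probes) was lower with elaidic acid, a dim probe of NDUFA12L at 2.34, 3.11, 3.55 and 2.93 against 4.09, 4.57, 4.74 and 5.18 (-1.67 ± 0.31, limma adjusted p = 0.035). It differed by about as much within range A (-1.63 ± 0.39, limma adjusted p = 0.25), where no member was called (0.0218% of all probes were). The brighter NDUFA12L probe had a difference of 0.82 in the same comparison. Without oleic acid replicate 2, 3 or 4 or elaidic acid replicate 1 or 3 no member was called, and 2 and 3 were without elaidic acid replicates 2 and 4. With array weights 52 members were called. Over all probes the calls ran up to 8953 of 22939 across the alternative settings, so the 52 are not read as particular to the members.

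Oleic acid against control lies within range A. No member was called (0% of all probes were), 2 (2.47%, against 2.62%) had an unadjusted p under 0.05, and the median was -0.03 (0.01 over all probes). In 1 member (1.23%, against 0.606% of all probes), the dim NDUFA12L probe, every oleic acid sample lay above every control. The 95% intervals allow sizeable differences for single members, such as -0.58 to 0.56 for ATP5G3, -0.50 to 0.35 for NDUFA6 and -0.96 to 1.09 for COX5A. Oleic acid against stearic acid, across the ranges, had 56 members lower (69.1%, against 18.4% of all probes) and 3 higher (3.70%, against 21.0%), COX6A2, COX6B2 and the dim NDUFA12L probe. With the range in the model the median of -1.42 became -0.48, and no member was called (0% of all probes were). It shares its stearic acid samples with the comparison with control.

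Most genes with a pair of tested probes gave the same sign on both. Of 16 such genes, 12 had the same sign of the range difference and 14 of stearic acid against control without the range. NDUFA2 was split in the latter, at -0.81 and 0.73, and UQCRC2 was split in both. NDUFS3 (2.12 and -0.23), NDUFA12L (1.10 and -0.08) and ATP5D (-0.17 and 0.28) were split in the range difference. For COX6B1 the dimmer probe had a range difference of 1.88 and the brighter one 0.42.

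Genes that serve the chain were counted in the same way, and read against the 15.0% of all probes called higher and 14.8% called lower with stearic acid against control. Of 16 probes of electron carriers and of subunits outside the naming rule, 8 were called higher and 1 lower with stearic acid against control without the range, at a median of 0.72. ETFA, the electron transfer flavoprotein that takes electrons from fatty acid oxidation, was the leading one at 3.25 ± 0.58 (limma adjusted p = 0.0020), and 1.19 ± 0.78 with the range. Of 21 probes of assembly factors, 10 rose and none fell, at a median of 1.14. ATPAF1, which assembles the head of ATP synthase, was at 2.37 ± 0.55 in elaidic acid against control and 1.71 ± 0.62 within range A (limma adjusted p = 0.084 and 0.57). Among 14 probes of transcriptional regulators of respiratory genes 2 rose, among 16 of tricarboxylic acid cycle enzymes 6 rose and 2 fell, and among 9 of carriers and channels of ADP, ATP and phosphate 6 rose, at medians of 0.51, 0.48 and 1.12. The share that rose among the regulators and the share that fell among the cycle enzymes were near those of all probes. The cytosolic ribosomal proteins, set beside them for comparison, had 26 of 43 probes higher and 3 lower, at a median of 1.17. With the range in the model no probe of these lists was called in stearic acid against control. In elaidic against oleic acid without the range, 1 of the 16 electron carrier probes and 1 of the 9 carrier and channel probes were called higher. Of all 22939 probes 69 were, and with the range neither list had a called probe. The range difference itself was called in 3 assembly factor probes (2 higher, 1 lower in range B) and 2 ribosomal protein probes (1 higher, 1 lower). Of all 22939 probes, 2.36% were called higher in range B and 389 probes lower, and the ribosomal protein counts were near those shares. The range medians were 0.61, 0.89, 0.39, 0.30, 0.45 and 0.59 in the order given. No mitochondrially encoded gene had a probe by symbol.

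A total of 12 member probes had a value at or below 0 in at least 1 sample and were left out of the fit. Of these, the probes of NDUFA4, now placed in complex IV, NDUFB5, NDUFC2, COX7B2, COX8A, COX8C and ATP5G2, the second of UQCRB and both of NDUFA5 never exceeded an intensity of 20.4. A pair of the left out probes read higher in 1 range than in the other, without overlap. The second probe of NDUFAF1 read 131.9 to 318.5 in all 10 samples of range A and -7.02 to 5.51 in the 6 of range B, while its tested probe had a range difference of 0.17 ± 0.29. COX4NB read -1.48 to 28.3 in range A and 57.6 to 98.4 in range B, where the median intensity of the samples was 45.8 to 76.1.

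**Figure D5:**
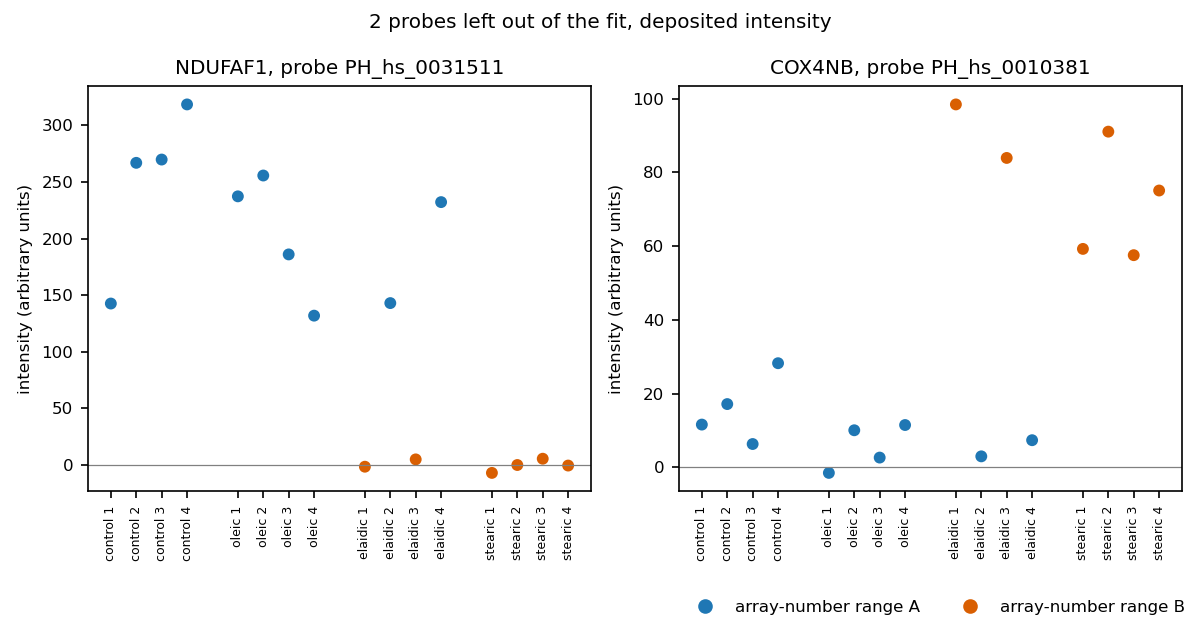
Deposited intensity (vertical axis, arbitrary units) of the left out probes of NDUFAF1 and COX4NB in the 16 samples (horizontal axis), coloured by array-number range; the grey line is 0. NDUFAF1 reads 131.9 or more in range A and at most 5.51 in range B, and COX4NB at most 28.3 in range A and 57.6 or more in range B, with the elaidic acid samples split between them.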

How the data were processed

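Per the labels, RNA of 16 HepG2 samples was amplified, labelled with Cy5 and hybridised on 2 technical replicate arrays each. The deposited table holds 1 linear intensity per probe and sample, which the authors had background-subtracted (values below 0 occur); how technical replicates were combined is not given in the sources used here, and no scaling between samples was found. The number of arrays limits the precision.

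Probes at or below 0 in any sample (8029 of 30968, 25.9%) were left out, values were turned to log2 and quantile normalised, and 6 contrasts were fitted over all 16 samples with limma 3.58.1 in R 4.3.3 (lmFit, eBayes, two-sided; Benjamini-Hochberg over 22939 probes). Differences are on the log2 scale, with standard errors and 95% intervals of the model. Each contrast was also fitted with array-number range as a block. The model was tested on simulated data. Alternatives covered normalisation, filters, an offset of 50, an intensity trend, array weights, blocks and left-out samples.

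The members and gene lists were chosen with earlier results of these data known. Named by rule were, per complex, the brightest member and the 2 of smallest p in 5 comparisons, all called members, core subunits, and up to 3 of smallest p per related list; others were chosen after their values were seen. The NRF1 and YY1 letters were shortened after the files were seen. Figures used matplotlib 3.10.9 in Python 3.11.15.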

Additional observations from a re-analysis of the deposited data

Results flagged for a closer look

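In 33 values (27 member probes and the means per sample of 6 sets) each group of 4 was searched for a sample far from the other 3, in 132 tests. Of these, 5 stood apart by Dixon's criterion at a critical value of 0.829, and chance alone flags about 1 in 20 groups. NDUFAB1 was at 7.60 in stearic acid replicate 2 against 8.21 to 8.31 in the others, and SDHB at 10.77 in control replicate 1 against 10.23 to 10.32. The UQCRFSL1 probe was at 5.65 in control replicate 4 against 3.46 to 3.83. NDUFA2 (its brighter probe) was at 14.12 in stearic acid replicate 4 against 13.58 to 13.67, and NDUFS3 at 12.24 in stearic acid replicate 3 against 12.02 to 12.03.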

How the results depend on the processing

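With the array-number range as a block, members called fell from 57 to 0 in stearic acid against control, from 59 to 0 in oleic against stearic acid, from 2 to 0 in elaidic against stearic acid and from 1 to 0 in elaidic against oleic acid, and the medians became 0.46, -0.48, -0.28 and 0.20. Of the 81 members, 13 turned sign under it in stearic acid against control, 5 of them called ones. Among the called probes shown by sample these were UQCRFSL1 (-0.35), COX6B2 (0.13) and an ATP5O probe (-0.21), and the same ATP5O probe in oleic against stearic acid (0.12). Without normalisation the medians were 2.08 for stearic acid against control, -2.28 for oleic against stearic acid, -1.21 for elaidic against stearic acid and 1.47 for the range, and all probes then shifted by 0.26, -0.39, -0.28 and 0.53. With an offset of 50 and no filter they were 0.94, -0.98 and, for the range, 0.55, and the other range medians were 0.85 with median centring, 0.90 with cyclic loess, and 0.76 without the dimmest 50% of probes or with 1 probe per symbol. Array weights gave 42 members called in elaidic acid against control and 52 against oleic acid, and 12 against stearic acid with a median of -0.39. Across the alternative settings the calls over all 22939 probes ran up to 4656, 8953 and 1030 in these comparisons. Elaidic acid against control had 1 member called with the offset and 1 without the dimmest 50%. The single call against oleic acid was lost (0) without normalisation, with 1 probe per symbol, an intensity trend, the replicate block, without the 2 dimmest samples and in a fit of the pair only. The calls against stearic acid became 0 without normalisation, with the replicate block and in the pair only, 5 without the dimmest 50% and with the trend, and 9 with the offset and without the 2 dimmest samples. The 4 range calls became 0 without normalisation, 8 with median centring, 15 with the offset and 21 in elaidic acid alone. Leaving out 1 sample at a time gave 40 to 58 members called in stearic acid against control, 45 to 60 in oleic against stearic acid, 0 to 3 in elaidic against stearic acid and 0 to 3 in elaidic against oleic acid, and medians of 0.40 to 0.76 for elaidic acid against control. Over all probes the calls of elaidic acid against control ran from 0 to 4656 (main 74), against oleic acid from 0 to 8953 (73), against stearic acid from 0 to 1030 (91), of stearic acid against control from 0 to 10585 (6825), of oleic against stearic acid from 0 to 13525 (9057) and of the range from 108 to 2395 (930). The replicate numbers do not pair the samples: deviations of same-numbered samples correlated at -0.462 to 0.364 and of others at -0.429 to 0.47. Of 948 comparisons of called probes shown by sample with alternatives, 850 kept direction and side of the threshold, 94 lost the call and 4 turned sign. The cause of these changes was not tested.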
